A study of Mus musculus with 59 samples.

Results

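Digested uterus was compared with undigested uterus of the same mice. The comparison took every mouse for which the count table held both a digested piece (DU) and an undigested piece (U), matched by the mouse number in the column name, which gave 13 pairs, 26 of the 59 libraries of the study. The study sequenced RNA of uterine tissue from mated female mice about 2 to 6 months of age, paired with wild-type stud males that were either Esr1f/f or C57BL/6. Females were taken on the plug day (D0.5) or on D3.5. Control females were Esr1f/-, so that they also carried 1 null copy of Esr1, the gene of oestrogen receptor alpha. Knockout females were epiERα-/- (Esr1f/-Wnt7aCre/+), in which the Wnt7a-driven Cre acts in the epithelium and leaves Esr1 in stroma and muscle. The pairs came from 4 D0.5 control mice (numbers 1, 5, 8 and 9), 3 D0.5 knockout mice (25, 26 and 27), 3 D3.5 control mice (11, 14 and 16) and 3 D3.5 knockout mice (32, 34 and 35).

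U was 0.25 of 1 uterine horn, frozen at once on dry ice. The rest of the horns was slit open and kept in 0.5% dispase for 30 min, and DU was a small piece of this digested tissue, frozen before the luminal epithelium was scraped off. The stated purpose of DU was to learn what digestion does to expression. The scraped luminal epithelium (LE) of the same 13 mice was sequenced too, and its levels are set beside U and DU as a description. Because RNA was isolated in 1 batch per tissue, and the pieces also differed in their place in the uterus and in the time before freezing, digestion, time, place and RNA batch cannot be told apart in any DU against U difference below.

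The uterine wall holds a luminal and a glandular epithelium, a stroma of fibroblasts with vessels and leukocytes, and layers of smooth muscle covered by a mesothelium, with fat attached outside. Dispase is a neutral protease that cleaves fibronectin and basement membrane collagen and so loosens epithelial sheets from the stroma. Warm digestion of living tissue is known to switch on immediate early genes, among them the AP-1 factors (Fos and Jun proteins, which bind DNA as dimers), the EGR and NR4A factors and heat shock genes, within minutes and without new protein synthesis.

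Library totals, in megacounts, were 11.3 to 108.0 in U (median 21.7) and 14.1 to 46.2 in DU (median 19.5). Mitochondrially encoded genes held 2.69% to 4.82% of counts in U and 2.57% to 4.06% in DU. Esr1 was at 110 to 150 CPM (counts per 1e6 mapped counts, scaled by TMM here and below) in U of the 6 knockout mice and at 131 to 297 CPM in U of the 7 control mice, ranges that overlapped. In DU the ranges were 135 to 182 CPM and 190 to 275 CPM and did not overlap. The 3 U libraries of mice 8, 9 and 14 stood apart from the other U libraries in their ratio of long to short transcripts, as described below, and the count of calls, the highest genes and the lists that turned are given without these mice too.

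Many genes differed between DU and U, most of them by little. Of 16605 genes tested, 7608 (45.8%) were called at an adjusted p under 0.05 by edgeR's quasi-likelihood test with the mouse as a block: 3549 (21.4%) were higher in DU and 4059 (24.4%) lower. Only 4.34% of the called genes differed at least 2-fold, 293 higher (1.76% of genes tested) and 37 lower (0.223%). The median log2 fold change over all genes tested was -0.01. On TPM (transcript abundance per length and library), which shifted the median of all genes by 0.20, the split of calls was 6631 higher and 1011 lower. Without mice 8, 9 and 14 the count of calls was 4382, of which 1848 were higher and 2534 lower. No gene had U and DU libraries that did not overlap (0 of 16605, 0%). Within mice, 294 genes (1.77%) were higher in DU in all 13 pairs and 587 (3.54%) were lower in all 13.

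The direction of the difference followed the length of the transcript. Lengths here and below are effective lengths, taken from the ratio of counts to TPM, and can differ from full transcript lengths. Called genes higher in DU had a median length of 5344 bases, called genes lower in DU 1542 bases, and all tested genes 2769 bases. In the decile of genes with the shortest transcripts (median 642 bases) 49 of 1661 genes were called higher and 926 lower, with a median log2 fold change of -0.41. In the decile with the longest (median 7812 bases) 1239 were called higher and 13 lower, with a median of 0.44. The median of the shortest decile was below 0 in 12 of 13 mice, mouse 27 being the exception at 0.08. The median of the longest decile was above 0 in 12 of 13, mouse 32 being the exception at -0.08.

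The U libraries accounted for most of the spread in this trend. Each library's trend was taken as the median of its longest decile minus that of its shortest decile, in log2 CPM centred on each gene's mean. In U it ran from -1.36 to 0.50 (median -0.58, SD 0.65, n = 13), and in DU from -0.02 to 0.86 (median 0.36, SD 0.25, n = 13). U of mice 14, 8 and 9 lay lowest, whereas U of mice 1, 5, 11, 27 and 32 lay above 0, within the range of DU. The difference DU minus U was 1.82 in mouse 14, 1.55 in mouse 8 and 1.35 in mouse 9. It was 0.34 in mouse 1, 0.02 in mouse 32 and -0.07 in mouse 27. Base composition moved with it: the decile of genes with the lowest GC content (median 38.9%) had a median log2 fold change of 0.24 and the decile with the highest (59.6%) one of -0.22. Whether RNA integrity, digestion or the RNA batch set the length trend was not tested.

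**Figure D1:**
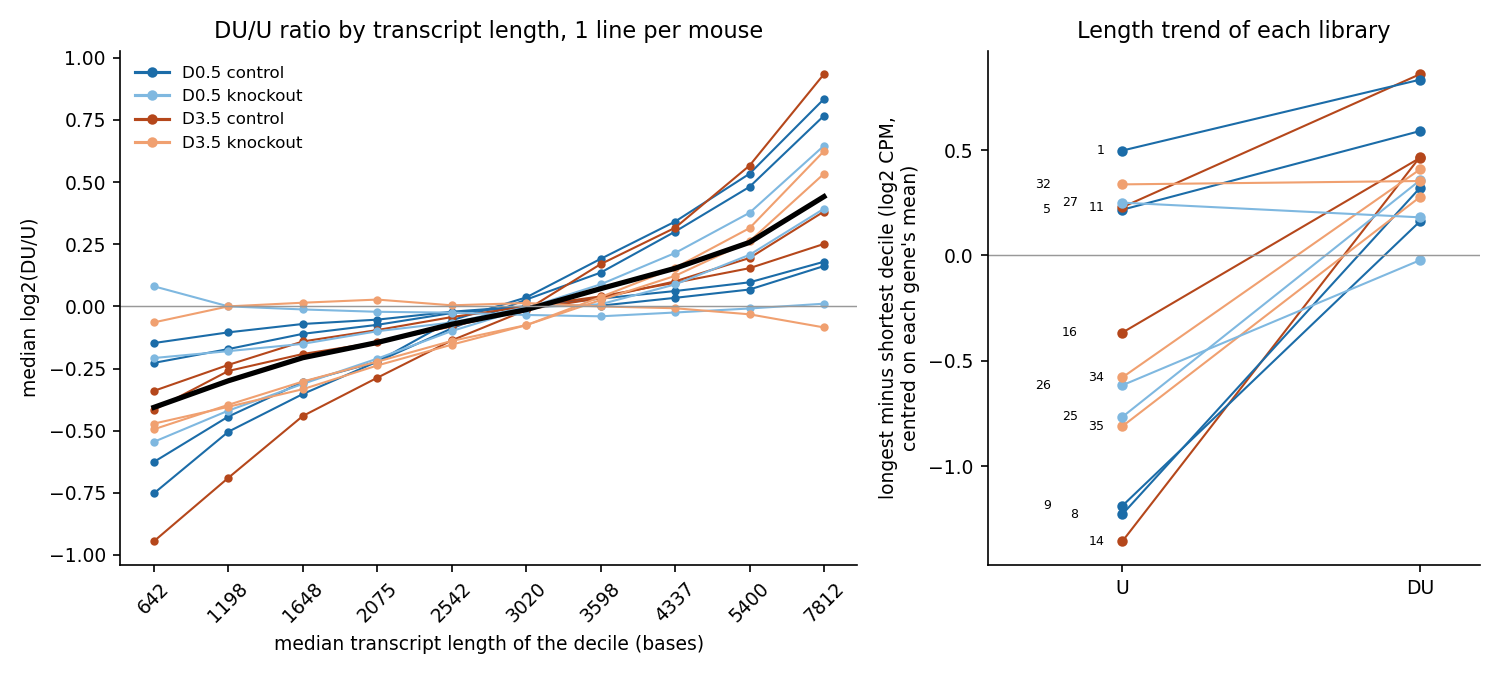
Left, median log2(DU/U) of each decile of genes by transcript length (x axis, median length in bases), 1 line per mouse coloured by day and genotype, with the fit over all mice in black. Right, the length trend of every U and DU library (longest minus shortest decile, log2 CPM centred on each gene's mean), lines joining the pieces of 1 mouse. The black line climbs from -0.41 to 0.44, and the U libraries of mice 8, 9 and 14 lie at or below -1.18, under all DU libraries.

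Since the calls followed length, a second fit was made in which each library's own length trend was removed by an offset, called the length-corrected fit below. Each list is given from both fits, with the named genes that lost their call. The second fit called 4173 genes (25.1%), 1552 higher (9.35%) and 2621 lower (15.8%). Each list count below is to be read against these shares, and against 21.4% higher and 24.4% lower in the uncorrected fit. Of the genes called in the uncorrected fit, 2987 were called in the same direction and 157 in the opposite direction. With length and GC trends both removed, 3441 genes (20.7%) were called, 1336 higher (8.05%) and 2105 lower (12.7%).

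Named first are the 15 called genes of largest log2 fold change that were higher in at least 12 of 13 mice and reached 10 CPM in DU. These were nearly all long, with a median length of 7896 bases, and 14 of them were called in the length-corrected fit. Zbed6, a zinc finger gene derived from a transposon and nested in an intron of Zc3h11a, led them. It ran from 6.47 to 273 CPM in U (median 52.6) and from 141 to 344 CPM in DU (median 251). The U libraries of mice 14, 9, 35 and 8 were the lowest, and those of mice 1, 5, 11, 27 and 32 overlapped DU. Its log2 fold change was 2.12 ± 0.53 (SE, n = 13 pairs, adjusted p = 0.00415, edgeR), and 1.53 in the length-corrected fit. Because Zbed6 lies inside another gene, its reads and those of its host cannot be fully told apart.

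Zfp369, a zinc finger gene, rose by 1.81 ± 0.38 (SE) on the log2 scale although its transcript was short for this group at 2231 bases, and by 1.89 in the length-corrected fit. Bdp1, a subunit of the initiation factor of RNA polymerase III, rose by 1.78. Lcor, a corepressor of ligand-bound nuclear receptors, rose by 1.69. It ran from 2.94 to 40.9 CPM in U (median 10.3) and from 19.1 to 54.9 CPM in DU (median 38.2), so the groups overlapped. Chd2, a chromatin remodeller, rose by 1.54.

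Cep290 (1.65), Pcnt (1.42) and Cep192 (1.40) encode proteins of the cilium base and centrosome, and the values are their log2 fold changes. Xiap (1.60) and Birc6 (1.39) encode inhibitors of apoptosis. Birc6, with a transcript of 14915 bases, ran from 21.1 to 185 CPM in U (median 56.6) and from 118 to 224 CPM in DU (median 191). The remaining 5 were Kcnn3, a calcium-activated potassium channel (1.49), Thoc2l (1.49), Uprt (1.40), the copper transporter Atp7a (1.39) and Klhl3, an adaptor of a ubiquitin ligase (1.87). Klhl3 was the 1 gene of the 15 that was not called in the length-corrected fit (adjusted p = 0.0645, edgeR).

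The size of these differences depended on the mouse. The rule required the same direction in at least 12 of 13 mice, and for all 15 genes the exception was mouse 32, where their median log2 ratio was -0.61. The median over the 15 was 3.49 in mouse 14, 3.16 in mouse 9, 2.94 in mouse 35 and 2.91 in mouse 8. It was 0.24 in mouse 5, 0.26 in mouse 11, 0.30 in mouse 27 and 0.32 in mouse 1. Mice with high ratios were largely those with a low length trend in U, and the part of that trend in the result was not tested. Without mice 8, 9 and 14, 14 of the 15 were called, and their median log2 fold change was 1.09 in place of 1.54. In D3.5 mice alone 3 of the 15 were called, and in knockout mice alone 0, where edgeR called no gene at all and 4382 had an unadjusted p under 0.05.

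**Figure D2:**
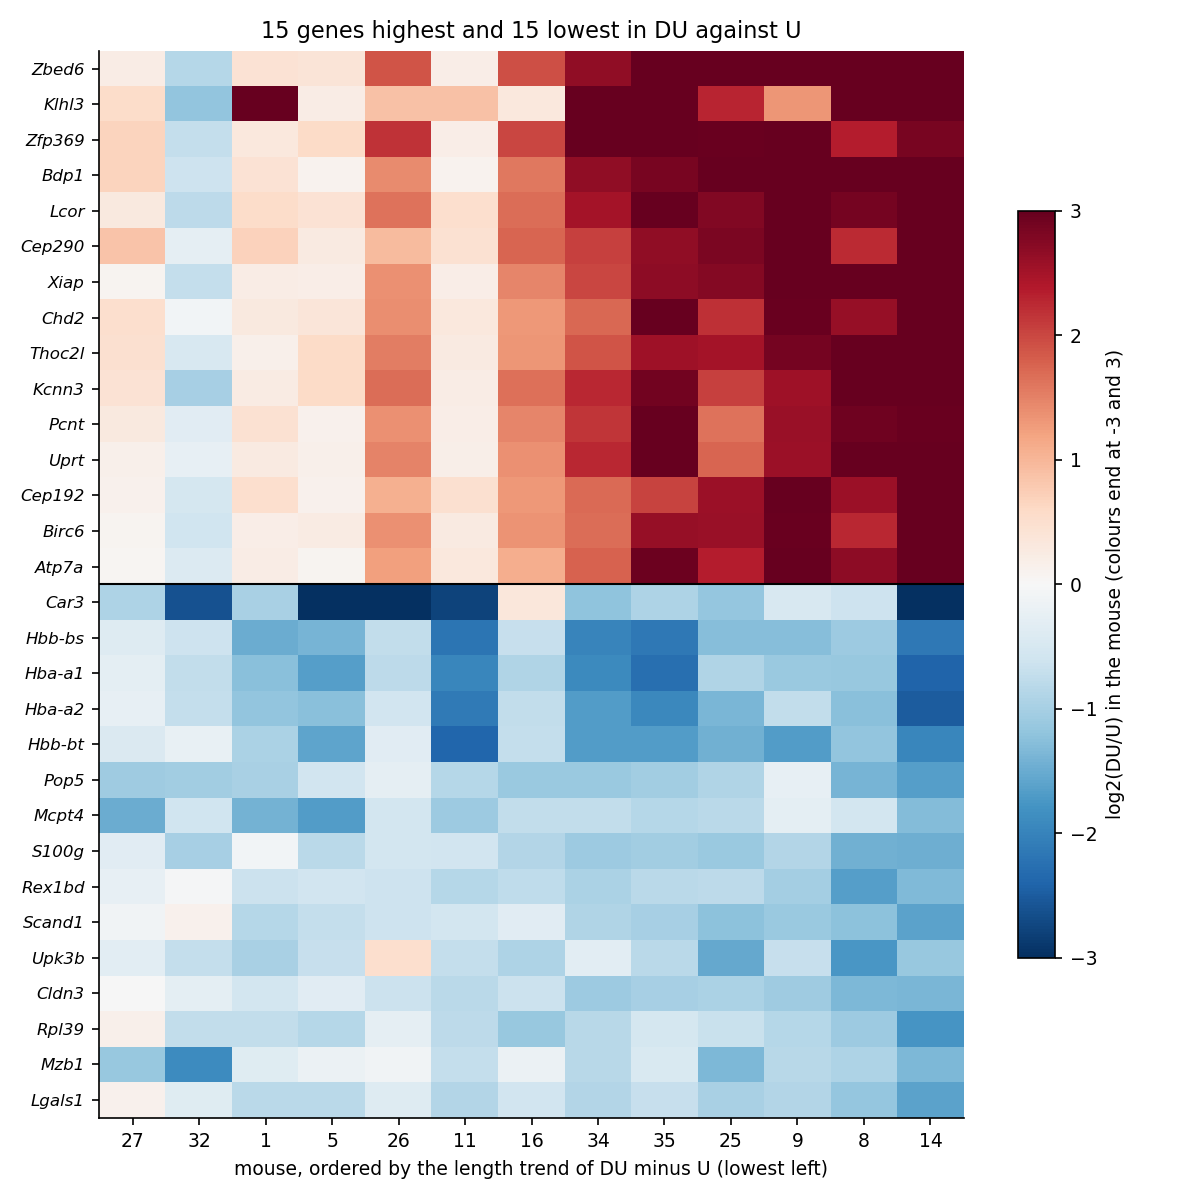
log2(DU/U) in each of the 13 mice (columns, ordered from the smallest to the largest DU minus U length trend) for the 15 highest and the 15 lowest genes (rows), colours ending at -3 and 3. The upper 15 are darkest in mice 34, 35, 25, 9, 8 and 14 and negative in mouse 32, while the globin genes are lower in DU in all 13 mice.

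The 15 lowest genes were taken by the same rule, which leaves out fat cell genes of larger change that stood below 10 CPM or fell in fewer mice. They were short, with a median of 596 bases, and all 15 were called in the length-corrected fit. Car3, a carbonic anhydrase abundant in fat and skeletal muscle, headed them. It ran from 1.24 to 88.9 CPM in U (median 14.0) and from 0.629 to 9.27 CPM in DU (median 2.61), a log2 fold change of -1.81 ± 0.38 (SE, n = 13 pairs, adjusted p = 0.00149, edgeR). It was lower in DU in 12 of 13 mice, and the groups overlapped. On a common scale of the 39 libraries of U, DU and LE, Car3 was highest in LE in 8 of 13 mice. The globin genes Hbb-bs, Hba-a1, Hba-a2 and Hbb-bt came next. S100g, a calcium-binding protein of absorptive and uterine epithelium, fell by 0.86 and was lower in DU in all 13 mice. It ran from 38.7 to 491 CPM in U (median 98.2) and from 14.2 to 200 CPM in DU (median 68.1).

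Cldn3, a tight junction claudin, fell by 0.78 in all 13 mice. Mcpt4, a protease of connective tissue mast cells, fell by 0.90, from a median of 9.04 CPM in U to 5.43 CPM in DU. Mzb1, which helps plasma cells and B cells assemble antibodies, fell by 0.77. Upk3b, a uroplakin of mesothelium, fell by 0.78 and by 0.87 in the length-corrected fit. Lgals1, a secreted galectin of stroma, fell by 0.76. The other 4 were Pop5, a subunit of RNase P and RNase MRP (-0.95), Rex1bd (-0.79), Scand1 (-0.78) and the ribosomal protein gene Rpl39 (-0.78).

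The globin genes of red blood cells were lower in DU than in U in every mouse. Of 6 red cell genes tested, 5 fell and 0 rose, with a median log2 fold change of -1.25 (-0.85 in the length-corrected fit, where 4 fell). The summed level of the list was 69.7 to 819 CPM in U (median 217.5) and 28.5 to 484 CPM in DU (median 74.5), lower in DU in 13 of 13 mice. Hbb-bs, an adult beta globin, ran from 30.8 to 323 CPM in U (median 87.4) and from 11.0 to 200 CPM in DU (median 30.5), and mouse 16 was the highest in both pieces. Its log2 fold change was -1.34 ± 0.16 (SE, n = 13 pairs, adjusted p = 0.000193, edgeR), with ratios from -2.20 to -0.39 by mouse. Hba-a1, an adult alpha globin, fell by 1.33. The paired copies Hba-a1 and Hba-a2, and Hbb-bs and Hbb-bt, are nearly identical, so how counts are shared within each pair is uncertain. Alas2, the first enzyme of haem synthesis in erythroid cells, fell by 0.45 (adjusted p = 0.0422, edgeR), was higher in DU in 3 mice and was not called in the length-corrected fit (adjusted p = 0.172). In bulk tissue fewer cells of a type and less RNA per cell cannot be told apart, here or for any cell type below.

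Because the globins fell together, the 250 bases before their starts are shown, from RefSeq (GRCm38.p6). Capitals mark the letters GATAAG, a form bound by GATA factors of erythroid cells, searched on both strands. Hbb-bs lies on the minus strand at chr7:103827929-103828178 and holds it 209 bases before the start. Hba-a1 lies on the plus strand at chr11:32283422-32283671 and holds it 182 bases before the start.
Hbb-bs: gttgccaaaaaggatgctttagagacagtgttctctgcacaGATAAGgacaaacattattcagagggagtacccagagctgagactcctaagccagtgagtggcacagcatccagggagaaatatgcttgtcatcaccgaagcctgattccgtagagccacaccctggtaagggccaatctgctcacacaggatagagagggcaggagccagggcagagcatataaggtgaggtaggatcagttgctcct
Hba-a1: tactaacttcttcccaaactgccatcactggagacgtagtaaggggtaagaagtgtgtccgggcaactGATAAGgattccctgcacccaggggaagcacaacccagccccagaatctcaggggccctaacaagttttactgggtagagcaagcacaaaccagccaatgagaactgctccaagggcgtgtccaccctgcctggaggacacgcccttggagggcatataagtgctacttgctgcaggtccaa
The letters stood in 4.93% of the 13014 matched promoters of tested genes, in 4.13% of the 2783 of genes called higher and in 4.26% of the 3288 of genes called lower. A match is a description, not a site.

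Adipoq, Cidec, Cfd and Lep, which fat cells express, were present in some U libraries and nearly absent from DU, while other genes of the fat cell list were not. Of 8 adipocyte genes tested 6 fell and 0 rose, with a median log2 fold change of -3.60 (-3.37 in the length-corrected fit, where 5 fell). Adipoq, the adipokine adiponectin, had 799 counts over the 13 U libraries and 10 over the 13 DU libraries, 10 of which held none. Cfd, the complement protease adipsin, had 2849 and 64. Plin1, which coats lipid droplets, had 708 and 155 counts, with some in every library, and was not called (adjusted p = 0.111, edgeR), nor was Retn, resistin, with 510 and 115. Lipe, a lipase that other cells make too, had 22443 and 19548 counts. It fell by 0.21 (0.25 higher on TPM) and lost its call in the length-corrected fit. The summed level of the list was 32.4 to 203 CPM in U and 25.9 to 177 CPM in DU. The summed level of Adipoq, Cidec, Cfd and Lep was above 1 CPM in 7 of 13 U libraries. These were mouse 14 at 92.0 CPM, mouse 5 at 39.7, mouse 26 at 34.0, mouse 32 at 24.6, mouse 1 at 18.2, mouse 11 at 17.9 and mouse 34 at 6.53. It was above 1 CPM in 1 DU library, that of mouse 32 at 1.95 CPM. U of mice 8 and 16 had no count of these genes, so the pieces of those mice could not differ in this direction. Fabp4, a fatty acid carrier of fat cells that capillary endothelium also makes, ran from 0.621 to 26.4 CPM in U (median 2.59) and from 0.0836 to 1.52 CPM in DU (median 0.654). It fell by 2.18 on the log2 scale, and the groups overlapped.

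Mesothelial genes did not move as 1 group. Of 7 tested, 3 fell and 0 rose, with a median of -0.16 (-0.26 in the length-corrected fit, where 2 fell and 1 rose). Upk3b ran from 15.0 to 103 CPM in U (median 58.9) and from 18.95 to 57.2 CPM in DU (median 32.1), lower in DU in 12 of 13 mice with mouse 26 as the exception. Upk1b fell by 0.75 (0.60 in the length-corrected fit) and Msln, mesothelin, by 0.53, a call lost in that fit. Wt1, a transcription factor of mesothelium that uterine stroma also expresses, had a log2 fold change of 0.11 (adjusted p = 0.139, edgeR) and of 0.18 in the length-corrected fit, where it was called higher. On a common scale of 39 libraries, Upk3b, Upk1b and Msln were each highest in LE in 12 of 13 mice. Wt1 was highest in LE in 0 of 13. The falls of Upk3b, Upk1b and Msln therefore cannot be assigned to mesothelium.

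Epithelial genes were lower in DU, although DU was frozen before the epithelium was scraped off. Of 14 tested, 11 fell and 0 rose, against 24.4% of all genes called lower, with a median of -0.43. In the length-corrected fit 9 fell, against 15.8% of all genes, with a median of -0.22, and with GC removed as well 5 fell. The summed level of the list was lower in DU in 12 of 13 mice. Krt19, a simple epithelial keratin, ran from 60.1 to 2221 CPM in U (median 193) and from 25.6 to 1097 CPM in DU (median 189). It was lower in DU in 12 of 13 mice, and the D0.5 control mice were the highest in both pieces, so the groups overlapped. Its log2 fold change was -0.58 ± 0.10 (SE, n = 13 pairs, adjusted p = 0.000569, edgeR). Cldn3 ran from 92.7 to 547 CPM in U (median 227) and from 91.5 to 213 CPM in DU (median 152). Its change was -0.50 in the length-corrected fit. The keratins Krt8 and Krt18 fell by 0.53 and 0.48, the adhesion molecule Epcam by 0.43, and the epithelial ligand Wnt7a by 0.45. Their falls in the length-corrected fit were 0.39, 0.24, 0.24 and 0.50, in this order. Cdh1, E-cadherin, had a log2 fold change of 0.05 (adjusted p = 0.633, edgeR), and Prom1, prominin of the apical membrane, 0.12 (adjusted p = 0.133). Neither was called in the length-corrected fit. On a common scale of the 39 libraries, Krt8, Krt19, Cldn3 and Epcam were each highest in LE in 13 of 13 mice.

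**Figure D3:**
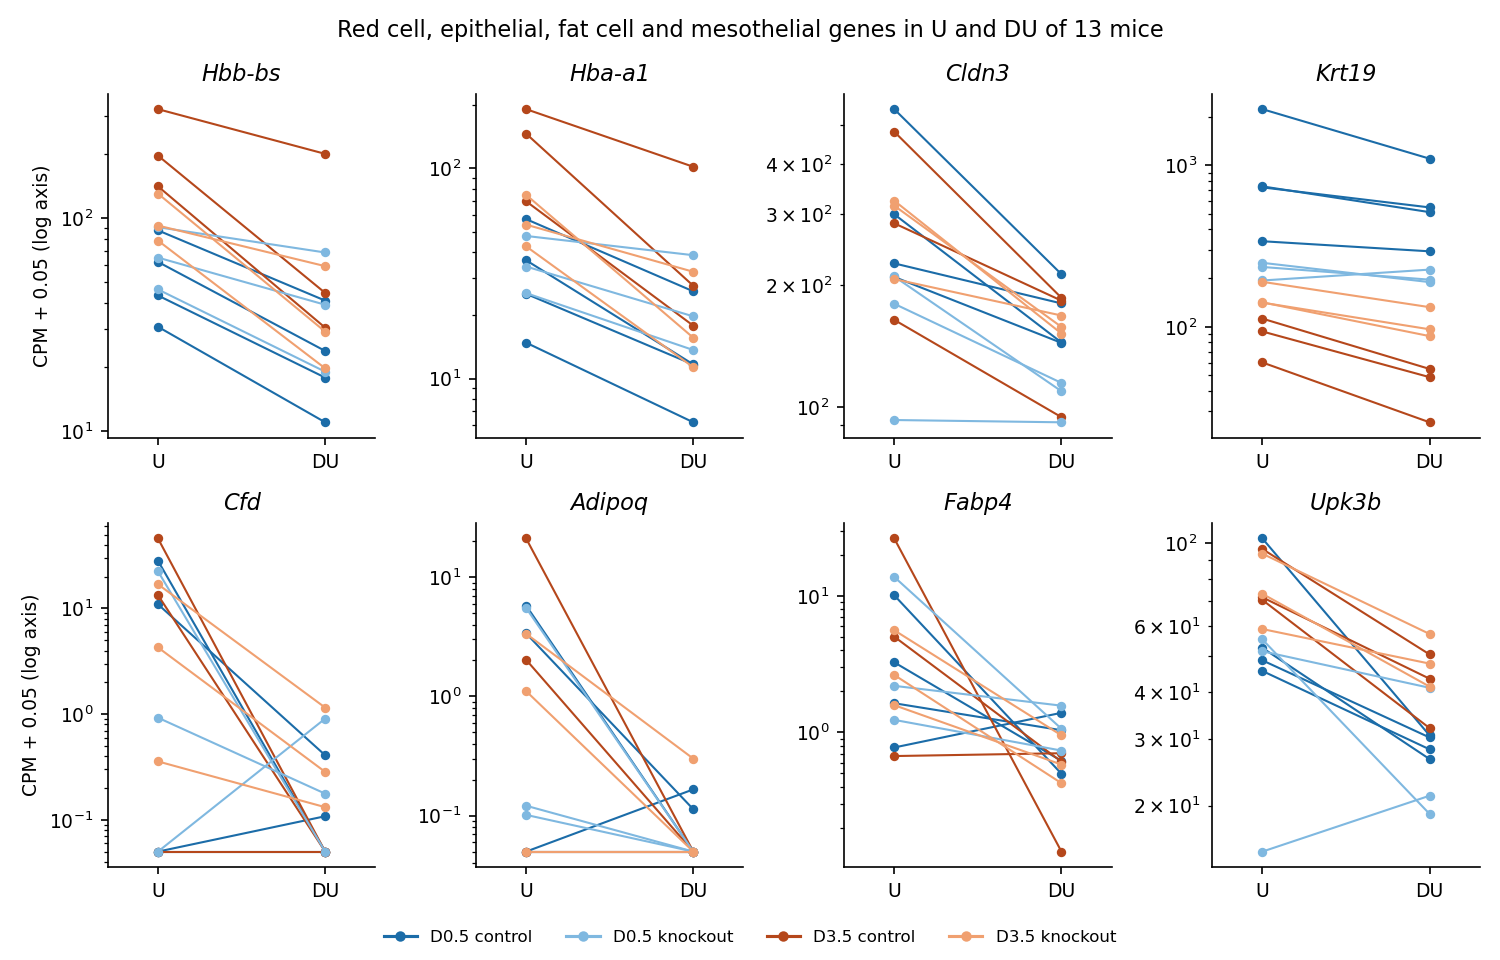
CPM + 0.05 on a log axis in U and DU for 8 genes of red cells, epithelium, fat and mesothelium, 1 line per mouse coloured by day and genotype. Hbb-bs, Hba-a1 and Cldn3 slope down in all 13 mice, Krt19 and Upk3b in 12, and Cfd and Adipoq fall from several U libraries to at or near 0.

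Leukocyte genes leaned to lower values in DU before the length correction, where 24.4% of all genes fell and 21.4% rose. In the length-corrected fit 15.8% of all genes fell and 9.35% rose. Only the macrophage list lay well above the share of falls there. Of 10 neutrophil genes 6 fell and 0 rose (median -0.46), and 2 fell in the length-corrected fit. S100a8, a calprotectin subunit, fell by 0.59, and ran from 0.330 to 757 CPM in U (median 3.73) and from 0.401 to 753 CPM in DU (median 2.06), with mice 25, 26 and 27 highest in both pieces. Csf3r, the receptor for G-CSF, fell by 0.27 and by 0.34 in the length-corrected fit. Of 8 macrophage genes 5 fell and 1 rose, and in the length-corrected fit 5 fell and 0 rose. With length and GC trends both removed 2 fell and 0 rose, against 12.7% and 8.05% of all genes. The complement genes C1qa and C1qb fell by 0.52 and 0.57 and the lysosomal protein Cd68 by 0.47, and in the length-corrected fit by 0.20, 0.26 and 0.19. With GC removed as well, C1qa and C1qb lost their calls, and Cd68 kept its call (-0.13). Mrc1, the mannose receptor with a transcript of 5765 bases, rose by 0.34, and its value was 0.05 in the length-corrected fit. Of 9 eosinophil and mast cell genes 4 fell and 1 rose, and in the length-corrected fit 1 fell and 1 rose. The mast cell tryptase Tpsb2 fell by 0.61, a call lost in that fit, while Kit, the receptor for stem cell factor, rose by 0.77 and by 0.49 in the length-corrected fit. Of 10 lymphoid genes 4 fell and 0 rose, and 1 fell in the length-corrected fit.

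Stromal, muscle and vessel genes went both ways, as did all genes, of which 21.4% rose and 24.4% fell. In the length-corrected fit these shares were 9.35% and 15.8%. Of 12 stromal fibroblast genes 2 rose and 7 fell, with a median of -0.18, and in the length-corrected fit 1 rose and 4 fell. Pdgfra, the PDGF receptor of fibroblasts, was higher in DU in 13 of 13 mice. It ran from 225 to 868 CPM in U (median 452) and from 411 to 914 CPM in DU (median 567). It rose by 0.47, and by 0.18 in the length-corrected fit. Of 12 smooth muscle genes 3 rose and 3 fell, near the shares of all genes, and in the length-corrected fit 0 were called. Of 8 pericyte genes 5 rose and 1 fell, and in that fit 1 rose and 1 fell. Of 10 blood endothelial genes 3 rose and 2 fell, and in that fit 0 rose and 3 fell. Of 8 genes of the stratified epithelium of cervix and vagina, which would mark a piece cut near the cervix, edgeR called 0. Their median log2 fold change was 0.51 (0.46 in the length-corrected fit). The DESeq2 Wald test and limma-voom each called 2 of the 8 higher. Without mice 11 and 32 edgeR called 2 of 9 tested higher. The summed level of the 8 was 12.1 to 112 CPM in U (median 50.0) and 9.63 to 139 CPM in DU (median 30.0), higher in DU in 6 of 13 mice.

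Genes of ribosomes and of respiration, which have short transcripts, were lower in DU. Of 77 cytosolic ribosomal protein genes, a list added after the data had been seen, 74 fell and 0 rose, with a median of -0.59. In the length-corrected fit 63 fell and 0 rose, with a median of -0.22. Their mean log2 ratio ran from -1.28 in mouse 14 to 0.12 in mouse 27, the mice with the largest and the smallest difference in length trend. Rps14, of the small subunit, ran from 958 to 2079 CPM in U (median 1191) and from 448 to 1234 CPM in DU (median 852). It was lower in DU in 13 of 13 mice and fell by 0.73, or by 0.33 in the length-corrected fit. Rps20, whose quantified length was 3878 bases, fell by 0.58 and by 0.70 in the length-corrected fit. Ribosomal protein genes have many near-identical pseudogenes, so the share of counts that each received is uncertain. Of 21 nuclear genes of the respiratory chain 18 fell (median -0.45), and 13 in the length-corrected fit (median -0.15). Cox7a2, a subunit of cytochrome oxidase, and Uqcrq, of complex III, each fell by 0.68, and by 0.29 and 0.28 in the length-corrected fit. Of 13 mitochondrially encoded genes 6 fell (median -0.34), and 1 in the length-corrected fit (median 0.02).

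The immediate early genes gave no common rise. Of 11 AP-1 genes 2 rose and 5 fell, with a median of -0.37 (1 rose and 2 fell in the length-corrected fit). With length and GC trends both removed 2 rose and 1 fell, against 8.05% and 12.7% of all genes, with a median of 0.0042. Over all genes 21.4% rose and 24.4% fell, and in the length-corrected fit 9.35% and 15.8%. Without mice 8, 9 and 14, 3 rose and 3 fell, with a median of 0.01. Without mice 11 and 32, 2 rose and 5 fell, with a median of -0.44. The mean log2 ratio of the list was below 0 in mice 16, 25, 26, 34 and 35 as well. It was above 0 in mice 1, 5, 11, 27 and 32, so the lean depended on the mice included. These were also the mice whose U libraries had a length trend above 0. The part of that trend in the lean was not tested. Fos ran from 4.77 to 129 CPM in U (median 60.7) and from 9.83 to 279 CPM in DU (median 117). The groups overlapped, and Fos was higher in DU in 10 of 13 mice. Its log2 fold change was 0.75 ± 0.42 (SE, n = 13 pairs, adjusted p = 0.15, edgeR), which did not pass. Mouse by mouse, the log2 ratio was 4.61 in mouse 32, 4.40 in mouse 11, 1.69 in mouse 35 and 1.21 in mouse 1. It was 0.18 to 0.61 in 6 mice and below 0 in mice 9, 16 and 14, lowest in mouse 14 at -1.48. Fosb, its close relative, had 1.04 ± 0.49 (SE, adjusted p = 0.0899, edgeR), with 4.54 in mouse 32, 4.27 in mouse 11, 2.73 in mouse 1 and -2.48 in mouse 14. Without mice 11 and 32 the values were 0.26 for Fos (adjusted p = 0.344) and 0.49 for Fosb (adjusted p = 0.283).

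Among the other AP-1 genes, Jun was called higher. It ran from 129 to 281 CPM in U (median 180) and from 142 to 324 CPM in DU (median 262). It was higher in DU in 12 of 13 mice and rose by 0.33 ± 0.09 (SE, adjusted p = 0.00577, edgeR), and by 0.28 in the length-corrected fit. Fosl2, with a transcript of 7079 bases, rose by 0.44 but had 0.05 in the length-corrected fit. Batf (-0.56), Jdp2 (-0.54), Atf3 (-0.45), Maff (-0.37) and Jund (-0.37) fell, of which Jdp2 and Maff were also called in the length-corrected fit. Junb had -0.01 (adjusted p = 0.948, edgeR) and Fosl1 -0.53 (adjusted p = 0.42), at a median of 0.438 CPM in U.

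The promoters of Fos and Jun are shown because these are the genes most often read as a sign of dissociation, and here 1 of them was called and the other was not. The 250 bases before each start are from RefSeq (GRCm38.p6). In Fos, on the plus strand at chr12:85473640-85473889, capitals mark TGACGT, the core of a cAMP response element, 66 bases before the start. In Jun, on the minus strand at chr4:95052223-95052472, they mark TGACATCA, an AP-1 site variant, 45 bases before the start.
Fos: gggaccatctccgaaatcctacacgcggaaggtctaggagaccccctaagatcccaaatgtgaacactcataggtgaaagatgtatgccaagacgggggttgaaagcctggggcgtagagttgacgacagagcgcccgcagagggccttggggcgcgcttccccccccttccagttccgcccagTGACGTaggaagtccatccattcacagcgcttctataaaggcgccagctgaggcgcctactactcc
Jun: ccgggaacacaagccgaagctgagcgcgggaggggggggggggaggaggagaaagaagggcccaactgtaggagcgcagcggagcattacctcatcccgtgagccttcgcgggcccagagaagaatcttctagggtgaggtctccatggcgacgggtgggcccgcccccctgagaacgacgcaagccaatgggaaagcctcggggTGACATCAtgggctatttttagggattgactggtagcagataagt
Searched on both strands, TGACGT stood in 8.91% of the promoters of tested genes, in 9.49% of those called higher and in 10.04% of those called lower. TGACATCA stood in 1.65%, 1.62% and 1.13%. TGACTCA, the usual AP-1 letters, stood in 3.51%, 3.02% and 3.41%. These shares describe letters in a window and say nothing about binding.

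Of the 6 EGR and NR4A genes 1 rose and 0 fell, also in the length-corrected fit. Egr1, a zinc finger factor induced by serum and stress, ran from 28.2 to 296 CPM in U (median 52.0) and from 46.9 to 335 CPM in DU (median 143). It was higher in DU in 11 of 13 mice and rose by 0.82 ± 0.25 (SE, adjusted p = 0.0142, edgeR), and by 0.74 in the length-corrected fit. Without mice 11 and 32 it was not called (0.55, adjusted p = 0.0504). Egr2 (-0.17), Egr3 (0.33), Nr4a1 (0.02), Nr4a2 (0.11) and Nr4a3 (0.01), given as log2 fold changes, were not called. Of 32 other early genes 5 rose and 10 fell, against 21.4% and 24.4% of all genes. In the length-corrected fit 3 rose and 5 fell, near the 9.35% and 15.8% of all genes. With length and GC trends both removed 8 rose and 4 fell, against 8.05% and 12.7% of all genes, with a median of 0.02. Without mice 8, 9 and 14, and with no trend removed, 4 rose and 4 fell. Those that rose were small changes in genes of mRNA decay and feedback, such as Zfp36l1 (0.22), Zfp36l2 (0.29), Klf10 (0.23) and Sik1 (0.27), of which Sik1 lost its call in the length-corrected fit (0.06). Cebpd, a factor of the acute phase response, fell by 0.56 in 13 of 13 mice, and by 0.68 in the length-corrected fit. It ran from 32.7 to 870 CPM in U (median 225) and from 30.0 to 546 CPM in DU (median 142). Ier5l (-0.45), Gadd45b (-0.41), Klf2 (-0.38) and Hes1 (-0.33) fell too, of which only Ier5l was called in the length-corrected fit. Zfp36, tristetraprolin, had 0.46 (adjusted p = 0.064, edgeR), and Ier2 and Ier3 had -0.24 and -0.21, none of them called.

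Scraped epithelium, taken later from the same digested horns, stood above both pieces for several of these genes. On the scale of the 39 libraries Fos ran from 4.45 to 123 CPM in U (median 56.4), from 9.15 to 261 CPM in DU (median 108) and from 108 to 1181 CPM in LE (median 369). LE was the highest of the 3 tissues in 13 of 13 mice for Fos, and likewise for Fosb and for the heat shock gene Hspa1b. LE was above U in 12 of 13 mice for Egr1 and for Junb, in 11 for Jun and in 4 for Atf3. LE differs from U and DU in cell type, in scraping and in its RNA batch as well as in time, and these cannot be told apart.

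**Figure D4:**
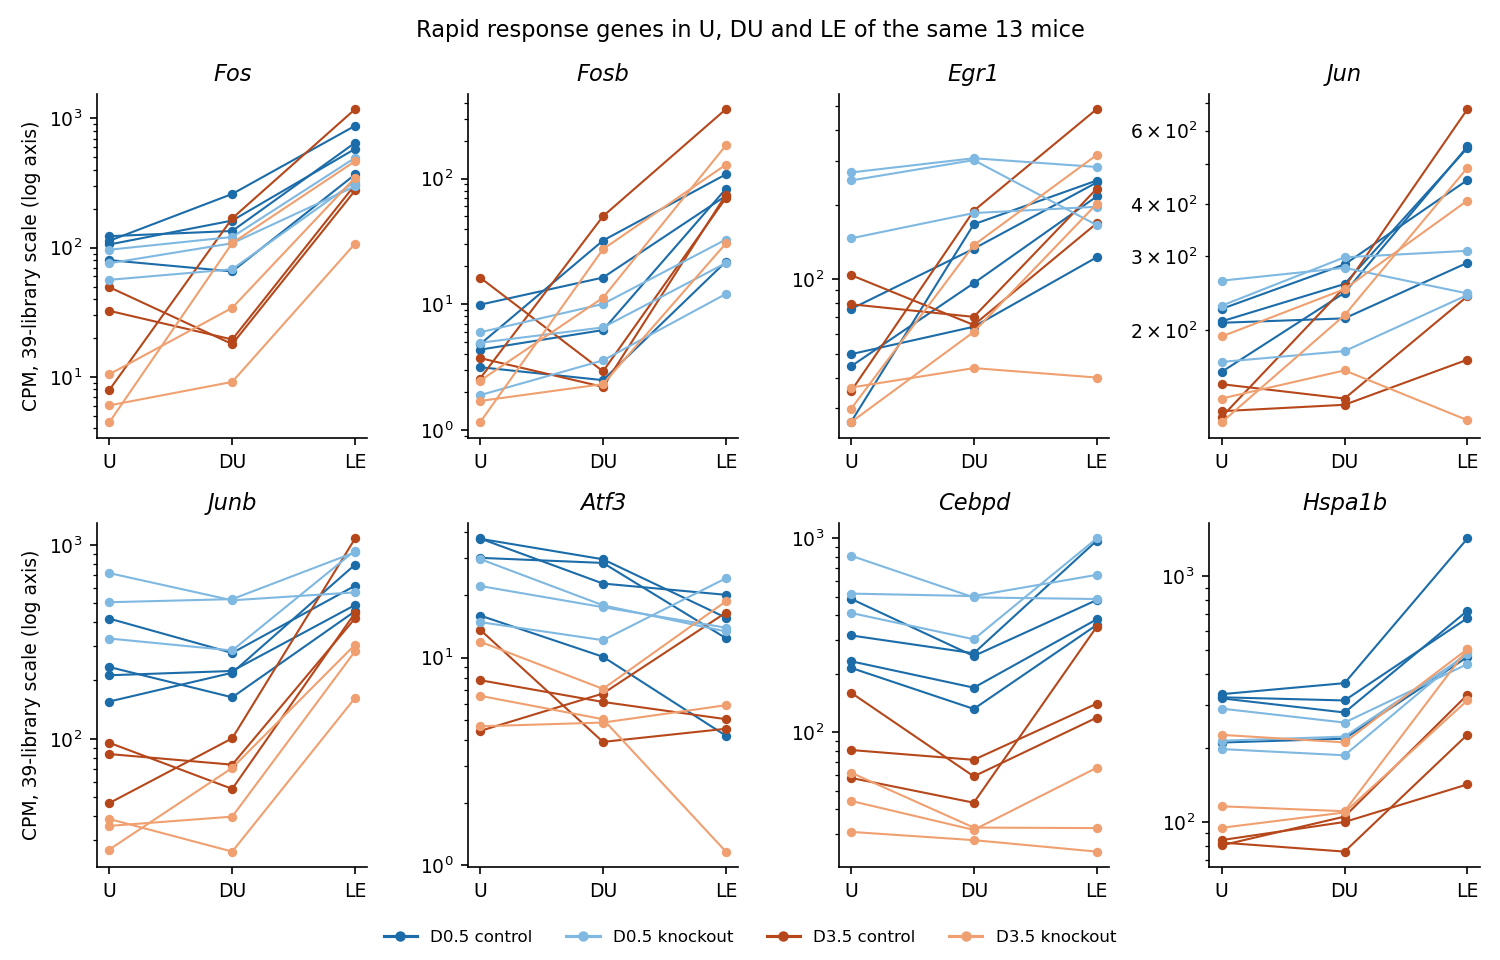
CPM on a log axis, scaled over 39 libraries, of 8 rapid response genes in U, DU and LE of the same 13 mice, 1 line per mouse coloured by day and genotype. Fos, Fosb and Hspa1b are highest in LE in all 13 mice, while between U and DU the steep climbs of Fos are those of mice 11 and 32.

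Of 22 heat shock genes 1 rose and 9 fell, with a median of -0.09, and in the length-corrected fit 3 rose and 2 fell, with a median of -0.03. Over all genes 21.4% rose and 24.4% fell, and in the length-corrected fit 9.35% and 15.8%. Hspa1a and Hspa1b, the inducible Hsp70 genes, had log2 fold changes of -0.01 (adjusted p = 0.891, edgeR) and 0.02 (adjusted p = 0.773), and on TPM Hspa1a was 0.24 and called higher. The 2 genes are near-identical copies, so counts between them are uncertain. Hspa1b ran from 86.5 to 354 CPM in U (median 221) and from 81.4 to 393 CPM in DU (median 227), with strong overlap. Hspa8, the constitutive form, fell by 0.24 in 13 of 13 mice, and the small heat shock protein Hspb1 fell by 0.50. In the length-corrected fit Hspa8 fell by 0.17, and Hspb1 was not called (-0.15, adjusted p = 0.0832). Of 25 inflammatory cytokines and chemokines 0 rose and 2 fell, among them Il1b by 0.51, a call lost in the length-corrected fit. Without mice 8, 9 and 14, 2 rose and 0 fell. In the length-corrected fit 3 were called higher and 0 lower: the neutrophil attractants Cxcl1 (0.52) and Cxcl5 (0.41) and the ligand Ccl20 (0.55). By uncorrected CPM, Cxcl1 was higher in DU in 5 of 13 mice, Cxcl5 in 8 and Ccl20 in 6. With length and GC trends both removed, only Cxcl1 kept its call (0.44), 1 of the 25 genes. Cxcl5 ran from 0.172 to 1975 CPM in U and from 0.311 to 1986 CPM in DU.

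Of the other stress lists, 2 leaned to falls and less so after the length correction, while that of hypoxia and glycolysis did not lean less. Of 25 genes of endoplasmic reticulum stress and amino acid response 3 rose and 15 fell (median -0.17), against 21.4% and 24.4% of all genes, and in the length-corrected fit 0 rose and 6 fell (median -0.07). Of 13 genes of oxidative and metal stress 1 rose and 8 fell, and in that fit 0 rose and 2 fell, with a median of -0.22 before and -0.10 after it. The metallothioneins Mt1 (-0.53) and Mt2 (-0.56), with effective lengths of 317 and 273 bases, were among those that fell. Neither was called in the length-corrected fit. Of 24 genes of hypoxia and glycolysis 1 rose and 7 fell, and in the length-corrected fit 3 rose and 7 fell. Their median was -0.07 before the correction and -0.09 after it. Over all genes 24.4% fell before it and 15.8% after it. The glycolytic enzyme Aldoa fell by 0.39, and by 0.16 in that fit. Adm, adrenomedullin, and Car9, a carbonic anhydrase, 2 hypoxia targets, were called higher in the length-corrected fit only, by 0.31 and 0.36.

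Of 13 genes of cAMP and CREB 4 rose and 0 fell, against 21.4% and 24.4% of all genes, and in the length-corrected fit 2 rose and 1 fell, against 9.35% and 15.8%. Sik2, a kinase of the CREB coactivators, rose by 0.92 (0.72 in the length-corrected fit), and Pde4d, a cAMP phosphodiesterase, by 0.62 (0.57). Of 11 glucocorticoid targets 4 rose and 2 fell, and in the length-corrected fit 4 rose and 1 fell. Without mice 8, 9 and 14, 2 rose and 2 fell. Zbtb16, the zinc finger factor PLZF that both glucocorticoid and progesterone induce, ran from 0.933 to 97.9 CPM in U (median 24.9) and from 5.27 to 198 CPM in DU (median 49.4). The groups overlapped, and it was higher in DU in 12 of 13 mice. Zbtb16 rose by 1.21 ± 0.21 (SE, n = 13 pairs, adjusted p = 0.000541, edgeR), and by 1.00 in the length-corrected fit. Pdk4, a brake on pyruvate oxidation, rose by 0.47 in 13 of 13 mice, and by 0.39 in the length-corrected fit. Of 15 clock genes 6 rose and 1 fell (median 0.15), and in that fit 4 rose and 0 fell, with a median of -0.0042. The repressors Per3 and Per2 rose by 0.70 and 0.50, and by 0.36 and 0.17 in that fit.

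Of 26 oestrogen and progesterone pathway genes, the pathway the study is about, 6 rose and 6 fell, with a median of -0.07, shares near the 21.4% and 24.4% of all genes. In the length-corrected fit 2 rose and 7 fell, against 9.35% and 15.8%, with a median of -0.06. Esr1 ran from 110 to 297 CPM in U (median 136) and from 135 to 275 CPM in DU (median 190). It rose by 0.27 ± 0.06 (SE, adjusted p = 0.00317, edgeR) in the uncorrected fit. Its transcript of 5829 bases is long, and in the length-corrected fit it had -0.03 (adjusted p = 0.615). Pgr, the progesterone receptor, rose by 0.45 and had 0.08 in the length-corrected fit. Ptch1, the Hedgehog receptor and target in stroma, rose by 0.51 and had 0.09. Areg, an EGF family ligand induced by progesterone, fell by 0.69 (-0.38 in the length-corrected fit, not called). Msx1, an epithelial homeobox factor of receptivity, fell by 0.40 in 13 of 13 mice and by 0.26 in the length-corrected fit. Hand2, a stromal factor downstream of progesterone, fell by 0.28 and by 0.20. Ltf (-0.19), the oestrogen-induced lactoferrin, Lif (0.22), the cytokine of implantation, Ihh (-0.21), the epithelial Hedgehog ligand, and C3 (-0.17) were not called. C3 was called lower in the length-corrected fit, by 0.44.

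The calls of matrix genes, the substrates of dispase among them, depended on the trend that was removed. Of 31 genes of fibrillar and basement membrane matrix 17 rose and 0 fell, with a median of 0.24, and in the length-corrected fit 0 rose and 9 fell, with a median of -0.13. With length and GC trends both removed 1 rose and 1 fell, with a median of -0.04. Fn1, fibronectin, ran from 518 to 2076 CPM in U (median 936) and from 653 to 2002 CPM in DU (median 1671). It was higher in DU in 11 of 13 mice and rose by 0.73, or by 0.26 in the length-corrected fit (adjusted p = 0.0804, edgeR, not called). Hspg2, perlecan, has a transcript of 15349 bases. It was higher in DU in 13 of 13 mice and rose by 0.47, and had -0.20 in the length-corrected fit (adjusted p = 0.0573). Col4a2, a basement membrane collagen chain, rose by 0.15 and fell by 0.23 in the length-corrected fit. Col7a1, of anchoring fibrils, rose by 0.72 and had 0.20. Col3a1, a fibrillar collagen, had 0.14 (adjusted p = 0.0848) and -0.14.

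**Figure D5:**
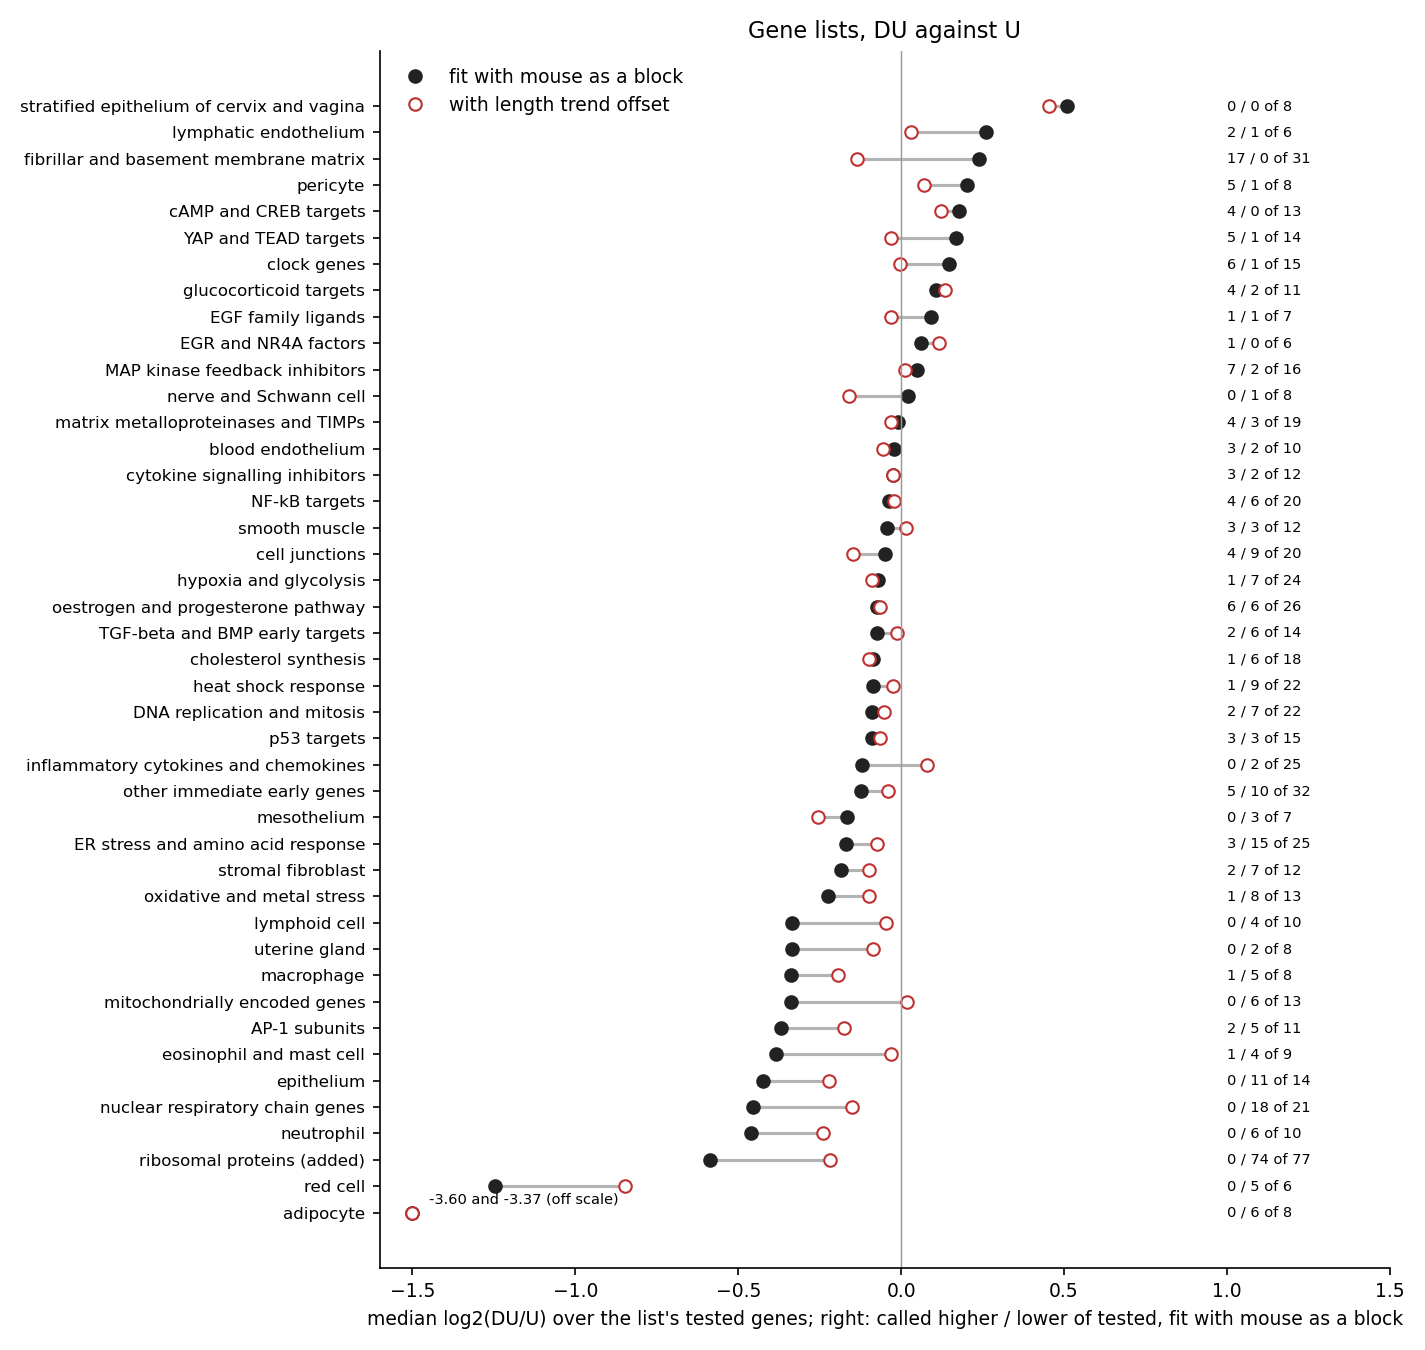
Median log2(DU/U) over the tested genes of each list, from the fit with the mouse as a block (black) and with the length trend removed (open red), with the numbers called higher and lower at right. The red cell, fat cell and epithelial lists lie below 0 in both fits, and the matrix list crosses from 0.24 to -0.13.

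Whether the DU against U difference itself differed between days or between genotypes was tested as a contrast of the 4 effects. edgeR called 0 genes between days (0%), with 601 at an unadjusted p under 0.05 (3.62%) and a smallest adjusted p of 0.732. It called 0 genes between genotypes (0%), with 635 at an unadjusted p under 0.05 (3.82%) and a smallest adjusted p of 0.966. DESeq2 called 1 gene between days, Fads2b (adjusted p = 0.00837), and 0 between genotypes, and limma-voom called 0 in both. On TPM with no filter on low values, 1 gene, Myh7, a myosin of heart and slow muscle, was called in each contrast. Fads2b and Myh7 were singled out after their values were seen. Side by side, the log2 fold change of Hbb-bs was -1.31 in D0.5 control, -0.80 in D0.5 knockout, -1.68 in D3.5 control and -1.60 in D3.5 knockout mice. That of Krt19 was -0.54, -0.15, -1.07 and -0.59, and that of Fos 0.44, 0.37, 0.31 and 2.23, in the same order. With 3 or 4 pairs in each group, none of these differences between the groups passed, which does not show that the groups were alike.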

How the data were processed

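The deposited tables give, per gene and library, estimated counts and TPM made by the authors. Per the submitters' processing notes the tool was kallisto 0.46.1 and the genome build GRCm39. The annotation and the summing to genes are not given in the sources used here. Members and gene lists were chosen with earlier results of these data known. The estimated counts, as deposited, were rounded to whole numbers, scaled by TMM and filtered with filterByExpr (minimum count 10), which left 16605 of 21706 genes. DU was tested against U in edgeR 4.0.16 (R 4.3.3) by the quasi-likelihood test with the mouse as a block, with Benjamini-Hochberg adjustment over all genes tested and calls at an adjusted p under 0.05. Differences between days and between genotypes were contrasts of 4 DU effects. The numbers mark the same animal. DU and U deviated together from their group means within mice (r from 0.139 to 0.620, median 0.349). Among the U libraries of its day and genotype, each DU library correlated best with that of its own mouse, in 13 of 13 mice. The p-values measure the spread between these mice and rest on RNA isolated once per piece.

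Effective transcript length per gene was taken from the ratio of deposited counts to TPM. It was set to bases with 2400 genes that have 1 transcript in GENCODE vM21, and GC content came from the same annotation (GRCm38). The length-corrected fit added a lowess trend (span 0.2) along length in each library as an offset. DESeq2 1.42.0, limma 3.58.1 (voom, and log2(TPM + 1)), other filters, subsets of mice and leaving out each mouse in turn were alternatives. Ratios by mouse used CPM + 0.05. The text names the 15 highest and 15 lowest called genes that moved alike in at least 12 of 13 mice, reach 10 CPM in the higher piece and have no predicted name. From each gene list it names called members of smallest adjusted p, members that go against the list and, where few are called, members that are not. Of 615 genes on 43 lists, 593 were in the tables, and the ribosomal list was added later. The least different of 30 pairs of libraries of 1 group had a chi-square of 16.72 per degree of freedom, so no library was taken for a copy. The tests were checked on simulated data. Total counts per library limit the precision of low genes, and repeat PCR reads are not independent molecules.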

Additional observations from a re-analysis of the deposited data

Results flagged for a closer look

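In the 4 D0.5 control mice, 145 log2 ratios of single genes and the length trend, 146 in all, were searched for a mouse far from the other 3, and 2 were found, where chance alone marks about 1 in 20. The Hba-a2 ratio of mouse 9 was -0.74, against -1.25 to -1.18 in the others, while its Hbb-bs ratio of -1.28 lay among theirs. The Cxcl5 ratio of mouse 1 was 0.97, against -0.15 to 0.01 in the others.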

How the results depend on the processing

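The count of 7608 genes called between DU and U stayed within 1.5 times under DESeq2 size factors, no filter on low counts, the DESeq2 Wald test, limma-voom, TPM, the mean of the 4 day and genotype effects and control mice alone. Leaving out 1 mouse at a time gave 6579 (without mouse 14) to 8080 calls (without mouse 32). Without the replicate block, which ignores the pairing by mouse, 4480 genes were called. Without it over all 33 DU and U libraries edgeR called 0, with 4055 at an unadjusted p under 0.05. D0.5 mice alone (7 pairs) gave 3173 calls and D3.5 mice alone (6 pairs) 2669. Knockout mice alone (6 pairs) gave 0, with 4382 at an unadjusted p under 0.05. Each of these sets had fewer samples than the full set. D3.5 and knockout mice had equal numbers of pairs, and why their counts differed was not tested. Alternatives added after the data were seen gave 4173 calls with the length trend removed, 3441 with length and GC removed, 4382 without mice 8, 9 and 14 and 7902 without mice 11 and 32. The count of at least 2-fold calls was 330. The contrasts between days and between genotypes gave 0 calls each in edgeR, also with any 1 mouse left out. DESeq2 called 1 gene between days, and TPM with no filter 1 between days and 1 between genotypes.

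Of 145 genes named with values, these changed sign with a call on either side. Hspa1a was 0.24 on log2(TPM + 1), 0.25 on log2(TPM + 0.1) and 0.24 on TPM with no filter, and Lipe was 0.25, 0.26 and 0.25 in the same order. With the length trend removed Esr1 was -0.028, Hspg2 -0.20 and Col4a2 -0.23 and Mki67 -0.17. With length and GC removed Esr1 was -0.074, Hspg2 -0.063, Col4a2 -0.091, Mrc1 -0.021, Top2a -0.017, Mki67 -0.20, Lipe 0.022 and Jund 0.0042. Without the block 37 of the 145 lost their call and 4 gained one. With the length trend removed 28 lost theirs and 8 gained one.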

Other observations

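Cell junction genes moved in both directions. Of 20 tested, 9 fell and 4 rose (median log2 fold change -0.05), and in the length-corrected fit 9 fell and 1 rose (median -0.15). The claudin Cldn7 fell by 0.50 and the tight junction scaffold Tjp3 by 0.42, and in the length-corrected fit by 0.20 and 0.42. Tjp1, the scaffold ZO-1 that many cell types share and whose transcript is 7333 bases long, rose by 0.43 and had 0.03 in the length-corrected fit. Of 18 genes of cholesterol synthesis 6 fell and 1 rose, and in the length-corrected fit 4 fell and 0 rose. Fdft1, squalene synthase, fell by 0.37 in DU and by 0.40 in the length-corrected fit.

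Genes of the cell cycle were called in both directions, and the 2 that rose had long transcripts. Of 22 genes of DNA replication and mitosis 7 fell and 2 rose, against 24.4% and 21.4% of all genes. The 2 that rose were Mki67, the Ki-67 protein (0.39, 10976 bases), and Top2a, topoisomerase II alpha (0.34, 5592 bases). Ccnb2, a mitotic cyclin (1420 bases), fell by 0.45, and Pcna, the replication clamp (1406 bases), by 0.27. In the length-corrected fit 3 of the list fell and 0 rose. Ccnb2 fell by 0.23 there, and Mki67 (-0.17), Top2a (0.06) and Pcna (-0.04) were not called.

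Of 16 MAP kinase feedback inhibitors 7 rose and 2 fell, and in the length-corrected fit 2 rose and 0 fell. Dusp4, a phosphatase of ERK, rose by 0.45 and by 0.47 in the length-corrected fit. Of 19 matrix metalloproteinase and TIMP genes 4 rose and 3 fell, near the 21.4% and 24.4% of all genes, and in the length-corrected fit 2 rose and 5 fell. Adamts4, an aggrecanase, rose by 0.52 (0.33 in the length-corrected fit), and the inhibitor Timp1 fell by 0.55 in 13 of 13 mice (0.19). Of 14 YAP and TEAD targets 5 rose and 1 fell (median 0.17), and in the length-corrected fit 2 rose and 3 fell (median -0.03). Crim1, a transmembrane protein that binds growth factors, rose by 0.58 (0.24 in the length-corrected fit).

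For the lists that follow, 21.4% of all genes rose and 24.4% fell, and in the length-corrected fit 9.35% and 15.8%. Of 8 uterine gland genes 2 fell and 0 rose, and in the length-corrected fit edgeR called none. Of 8 nerve and Schwann cell genes 1 fell, Cnp, a myelin enzyme, by 0.40 (0.32 in the length-corrected fit). Cnp was highest in LE in 13 of 13 mice, so its fall cannot be assigned to nerve. Of 6 lymphatic endothelial genes 2 rose and 1 fell, among them Prox1 by 0.74, with none called in the length-corrected fit. Of 20 NF-kB targets 4 rose and 6 fell, and in the length-corrected fit 0 and 4. Of 14 TGF-beta and BMP targets 2 rose and 6 fell, and in that fit 2 and 4. Of 15 p53 targets 3 rose and 3 fell, and in that fit 0 and 2. Of 12 cytokine signalling inhibitors 3 rose and 2 fell, and in that fit 0 and 3. Of 7 EGF family ligands 1 rose and 1 fell, and none in that fit.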
